A study of Mus musculus with 6 samples.

Results

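The 44 genes described here encode the machinery of S phase and DNA replication. They were chosen by gene symbol and sorted by the step at which their products act, with 10 genes of origin licensing, 20 of the replication fork, 5 of nucleotide supply, 5 of chromatin assembly and copying, and 4 regulators of the G1/S transition. The nucleotide step includes Ung, which removes uracil from DNA and does not supply nucleotides. Of the 18193 genes with a probe set of their own, each was represented by the probe set with the highest mean log2 signal over the 6 arrays, and 43 of the 44 members were measured (Chaf1a was not analysed here). All 43 were among the 10993 genes tested, for which 1 group or more had to be called present on each of its arrays, so the filter removed no measured member.

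The cells were epidermal basal cells of female C57BL/6 mice, 10 weeks old by the sample labels (the design text of the series gives a range of ages around this), freed from the dermis with trypsin in the cold and sorted by FACS as positive for α6 integrin and negative for the dead-cell dye propidium iodide. The groups were ventral skin of virgin mice (virgin ventral), dorsal skin at 16 days post coitum (16 dpc dorsal) and ventral skin at 16 dpc (16 dpc ventral), with 2 Affymetrix 3′ expression arrays each. The labels name no transgene or drug, and the gate named no marker that removes other α6 integrin-positive cells. The labels do not say whether the 2 arrays of a group came from separate mice, so p-values measure only the spread between these arrays. Comparing 16 dpc ventral cells with virgin ventral cells asks what differs in abdominal skin during pregnancy, and comparing them with 16 dpc dorsal cells asks what differs between the stretched belly and the back of pregnant mice. Virgin dorsal cells were not analysed here.

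A cell prepares to copy its genome in G1, when the origin recognition complex, Cdc6 and Cdt1 load the ring-shaped helicase Mcm2 to Mcm7 onto DNA at each origin. At the start of S phase these rings are activated, polymerases and the sliding clamp Pcna are brought to the forks, deoxynucleotides are made, and histones are supplied to the new DNA. Transcription factors of the E2F family drive most of these genes late in G1, and in the epidermis the cells that divide are mainly those of the basal layer.

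Signals are the deposited MAS5 values in arbitrary units. The authors' software had scaled every array to one trimmed mean, which came out as 500.0 on all 6, and between 47.2% and 53.3% of probe sets were called present. The 3′ to 5′ ratio of actin, a sign of RNA integrity, was 4.47 and 3.90 on replicate 2 of the 16 dpc dorsal and 16 dpc ventral groups and 1.78 to 2.46 on the other 4 arrays. All arrays held 10 of 10 basal keratinocyte markers as present, but also 6 of 6 markers of differentiating keratinocytes, so these calls do not tell sorted basal cells from whole epidermis. Of markers of other cells, 4 of 8 for Langerhans and other antigen-presenting cells and 3 of 7 for epidermal T cells were present on all 6 arrays, whereas Cd3e and Cd3d of the T cell receptor complex were present on none.

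Replication genes were present throughout. Of the 43 measured members, 41 were called present on all 6 arrays. Gins2 was absent on both virgin ventral arrays, and Rfc2 was marginal on virgin ventral replicate 2. With any probe set of a gene counted, all 43 were present on every array, so basal cells of virgin ventral and of pregnant dorsal skin also held a full set of detectable replication transcripts.

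In 16 dpc ventral cells, 43 of 43 members had a higher mean signal than in virgin ventral cells, against 53.0% of all genes tested. The median log2 fold change of the members was 0.68, with single members between 0.20 (the flap endonuclease Fen1) and 1.16 (the helicase subunit Mcm5), beside a median of 0.02 over all genes. No member passed an adjusted p of 0.05 in limma over all 10993 genes (the smallest was 0.248), where 0.136% of all genes rose and 0.0637% fell. With the replicate number as a block, 3 members rose, Mcm5 (adjusted p = 0.0303), Uhrf1 (0.0303) and Rrm2 (0.0452). At an unadjusted p under 0.05, 23 members were higher and 0 were lower, beside 6.18% and 5.47% of all genes. In bulk RNA a larger share of cells in S phase and more of these transcripts per cell cannot be told apart.

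Both 16 dpc ventral arrays lay above both virgin ventral arrays for 32 of the 43 members, a separation seen for 23.8% of all genes, and for no member did they lie below, as they did for 19.8% of all genes. Between arrays of the same replicate number, 42 members were higher in replicate 1 (median difference in log2 signal 0.54) and 43 in replicate 2 (0.77). The one member lower within replicate 1 was E2f1, on its chosen probe set. In all, 42 members were higher within both replicate numbers, beside 31.1% of all genes. The median rested partly on single arrays: without 16 dpc ventral replicate 2 it was 0.41, with 41 of 43 members still higher but 0 at an unadjusted p under 0.05, and without virgin ventral replicate 1 it was 0.49, with 43 higher and 4 at that p. With all probe sets of a gene averaged, 37 of 43 members were higher (median 0.58). These averages included 21 further probe sets that did not pass the filter.

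Against 16 dpc dorsal cells, 42 of 43 members had a higher mean in 16 dpc ventral cells, beside 43.3% of all genes. The median log2 fold change was 0.49, beside -0.04 over all genes, and single members ran from -0.05 (Fen1) to 1.41 (the transcription factor E2f8). No member passed the adjusted p in limma (the smallest was 0.584), where 0.0455% of all genes rose and 0.0364% fell, and 12 were higher at an unadjusted p under 0.05, with 0 lower, beside 2.65% and 2.44% of all genes. Both ventral arrays lay above both dorsal arrays for 17 members, beside 13.1% of all genes, and below them for 0, beside 19.7%. The 2 comparisons share the 16 dpc ventral arrays, so their fold changes are not independent.

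Within replicate 1 the median difference between ventral and dorsal cells was 0.53 and within replicate 2 it was 0.49, and 42 members were higher within both, beside 25.1% of all genes. Single arrays mattered more here. Without 16 dpc dorsal replicate 1 the median was 0.15 and 1 member had an unadjusted p under 0.05. Without 16 dpc ventral replicate 2 it was 0.21 with 0 such members. Conversely, without 16 dpc dorsal replicate 2 it was 0.78 with 27 such members, and without 16 dpc ventral replicate 1 it was 0.79 with 23.

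Dorsal cells of pregnant mice were also set against virgin ventral cells. In that comparison, in which both site and pregnancy differ and cannot be told apart, 35 of 43 members had a higher mean in 16 dpc dorsal cells, beside 60.2% of all genes, with a median log2 fold change of 0.16 beside 0.07. In limma, 0 members passed the adjusted p, as did 0.0% of all genes in either direction, and 0 had an unadjusted p under 0.05, beside 3.88% of all genes higher and 3.39% lower. Both dorsal arrays lay above both virgin arrays for 4 members (Mcm6, Pola1, Prim2 and Tyms), beside 24.3% of all genes, and 24 members were higher within both replicate numbers, beside 34.1%. The direction was not stable to single arrays. A higher mean was found for 20 members without virgin ventral replicate 1 (median -0.01) and for 14 without 16 dpc dorsal replicate 2 (median -0.13), but for 41 without virgin ventral replicate 2 (median 0.34) and for 41 without 16 dpc dorsal replicate 1 (median 0.49, with 5 at an unadjusted p under 0.05).

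**Figure D1:**
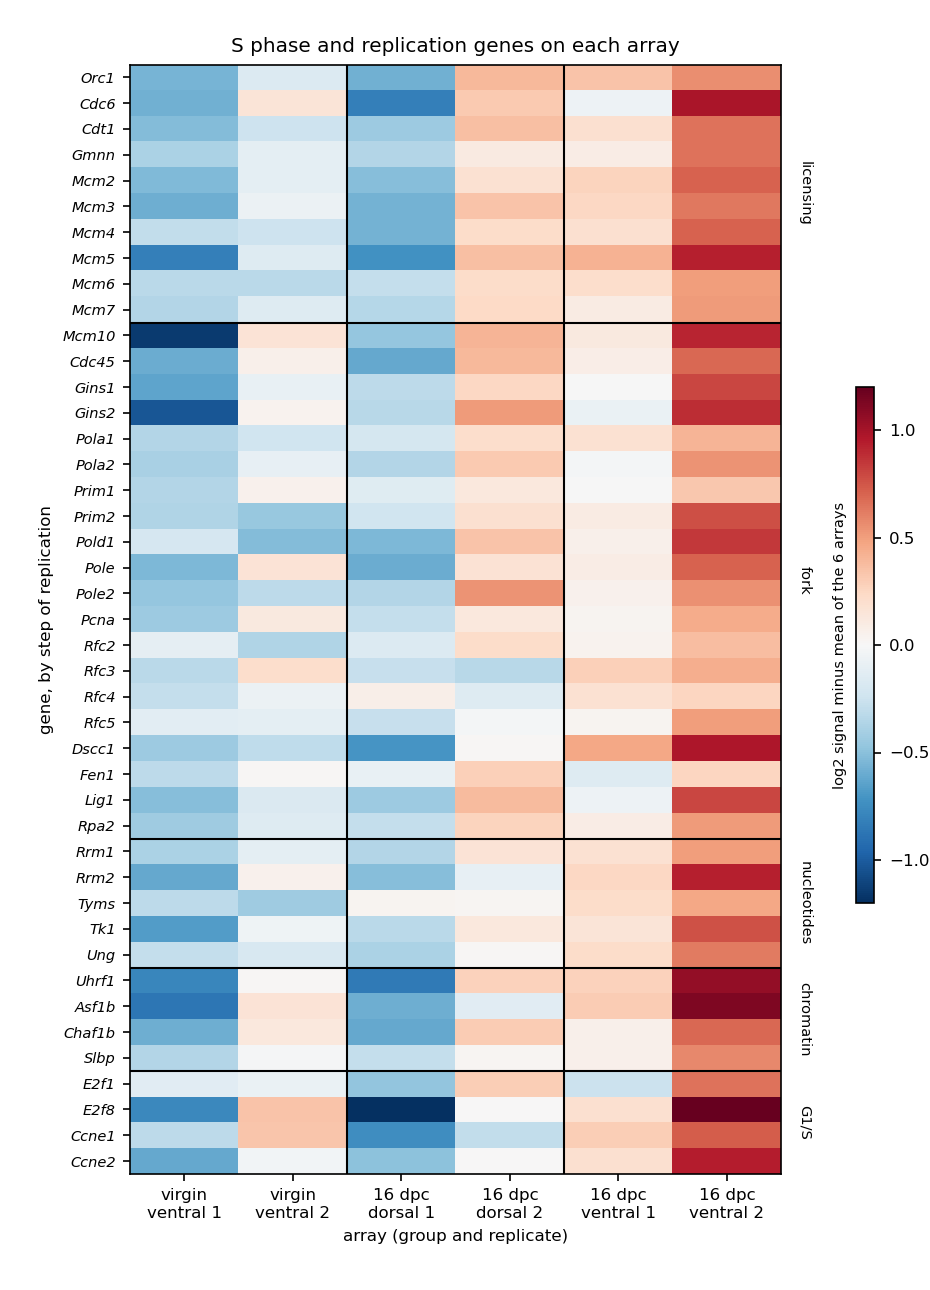
Log2 signal of the 43 measured members (rows, by step) on the 6 arrays (columns), each minus the gene's mean over the 6 arrays; red is above and blue below that mean. The last column, 16 dpc ventral replicate 2, is the highest of the row for 42 members, and the first column, virgin ventral replicate 1, is the lowest for 24.

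The 43 members moved together from array to array, within groups as well as between them. The array with the highest signal was 16 dpc ventral replicate 2 for 42 of 43 members, beside 21.0% of all genes, and the exception was Fen1, highest on 16 dpc dorsal replicate 2. The lowest array was virgin ventral replicate 1 for 24 members, 16 dpc dorsal replicate 1 for 14, virgin ventral replicate 2 for 4 and 16 dpc dorsal replicate 2 for 1, and for no member was it a 16 dpc ventral array. Replicate 2 was above replicate 1 for 38 members in virgin ventral cells, 40 in 16 dpc dorsal cells and 43 in 16 dpc ventral cells, beside 49.9%, 59.8% and 61.8% of all genes. The median gap between these replicates, 0.34, 0.57 and 0.51 on the log2 scale, was of the size of the median differences between groups.

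The arrays of replicate 2 of both 16 dpc groups were also those of high actin ratio, whereas the ratio on virgin ventral replicate 2 (2.15) was below that on virgin ventral replicate 1 (2.46) although its members were higher. The part of RNA integrity in the members' values was not tested. Leaving out both arrays of high ratio left 41 of 43 members higher in 16 dpc ventral than in virgin ventral cells (median 0.41) and 42 of 43 higher than in 16 dpc dorsal cells (median 0.53).

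Part of these genes had promoter sequence in common that the choice of members did not use. RefSeq windows on GRCm38.p6, from 250 bases before to 50 after a start, were listed for 35 of the 44 members, in 40 windows. Each was searched on both strands for the E2F letters TTTCCCGC, TTTCGCGC, TTTGCCGC and TTTGGCGC, which can overlap one another on opposite strands, and 13 members held a match, 37.1% of the 35, beside 2.60% of the 27025 genes in the table (744 of 32851 windows, 2.26%). The 13 were Cdc6, Cdt1, Lig1, Mcm3, Mcm5, Mcm6, Mcm7, Orc1, Pola1, Pold1, Pole2, Rfc3 and Uhrf1, of which 7 are licensing genes. Shown here, because their values are given in full further on, are 100-base stretches of the 6 such members with a match lying wholly before the start, 5′ to 3′ on the gene's strand, with the E2F letters in capitals.
Mcm5 (chr8:75109312-75109411, + strand): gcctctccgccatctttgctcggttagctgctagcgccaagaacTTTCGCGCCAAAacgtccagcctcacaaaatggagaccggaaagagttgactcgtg
Mcm6 (chr1:128359731-128359830, - strand): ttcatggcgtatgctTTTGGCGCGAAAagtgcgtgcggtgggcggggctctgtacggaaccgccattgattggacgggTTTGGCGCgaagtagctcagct
Mcm7 (chr5:138171995-138172094, - strand): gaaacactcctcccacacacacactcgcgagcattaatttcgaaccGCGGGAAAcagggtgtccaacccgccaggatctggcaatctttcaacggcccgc
Pola1 (chrX:93632240-93632339, - strand): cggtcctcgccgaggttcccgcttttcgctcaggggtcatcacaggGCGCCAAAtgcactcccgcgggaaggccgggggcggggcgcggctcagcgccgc
Rfc3 (chr5:151651209-151651308, - strand): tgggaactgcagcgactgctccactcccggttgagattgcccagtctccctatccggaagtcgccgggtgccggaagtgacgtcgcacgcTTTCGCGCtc
Uhrf1 (chr17:56304082-56304181, + strand): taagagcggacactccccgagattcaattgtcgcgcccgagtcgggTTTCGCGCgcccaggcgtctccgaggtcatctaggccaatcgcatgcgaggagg
In Mcm5 a match on each strand overlapped, beginning at -153 and -149 from the start, and Mcm6 had such a pair at -110 and -106 and a further match at -47. Mcm7 had one at -165 and Pola1 one at -138, both on the reverse strand. The match lay at -185 in Uhrf1 and at -10 in Rfc3. Mcm7 and Rfc3 held a further match beginning at 17 and 1, counted from the start, outside the stretches shown. A match is a run of letters and was not tested as a binding site.

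The CCAAT box, CCAAT on either strand, was found in 20 of the 35 members (57.1%, beside 41.1% of all genes), and the letters TTTGAA of the cell cycle homology region (CHR), known from genes of mitosis, in 5 (Asf1b, Cdc45, E2f8, Fen1 and Mcm2), 14.3% beside 20.2%. Of 28 mitosis genes with a window, the same search found the E2F letters in 1 (Cdk1), the CCAAT box in 22 and the CHR letters in 20, or 71.4%. Of 44 other replication genes, 14 held the E2F letters and 8 the CHR letters. Members without E2F letters in this window also had high fold changes, as in the promoters of Rrm2 and Asf1b, shown with the CCAAT box in capitals.
Rrm2 (chr12:24708154-24708253, + strand): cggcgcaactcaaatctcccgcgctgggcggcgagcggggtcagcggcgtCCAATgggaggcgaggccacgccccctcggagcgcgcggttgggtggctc
Asf1b (chr8:83955527-83955626, + strand): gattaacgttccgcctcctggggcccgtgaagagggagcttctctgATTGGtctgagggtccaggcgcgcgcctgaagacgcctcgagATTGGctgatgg
Asf1b held the CCAAT box at -200, -121, -79 and -39, of which the middle pair is in the stretch shown, and CHR letters at -14, whereas Rrm2 held a single CCAAT at -50. The median log2 fold change over virgin ventral cells was 0.72 for the 13 members with E2F letters and 0.59 for the 21 measured members with a window and none, and over 16 dpc dorsal cells 0.55 and 0.45. The ranges overlapped, 0.42 to 1.16 and 0.20 to 1.06 over virgin ventral cells.

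**Figure D2:**
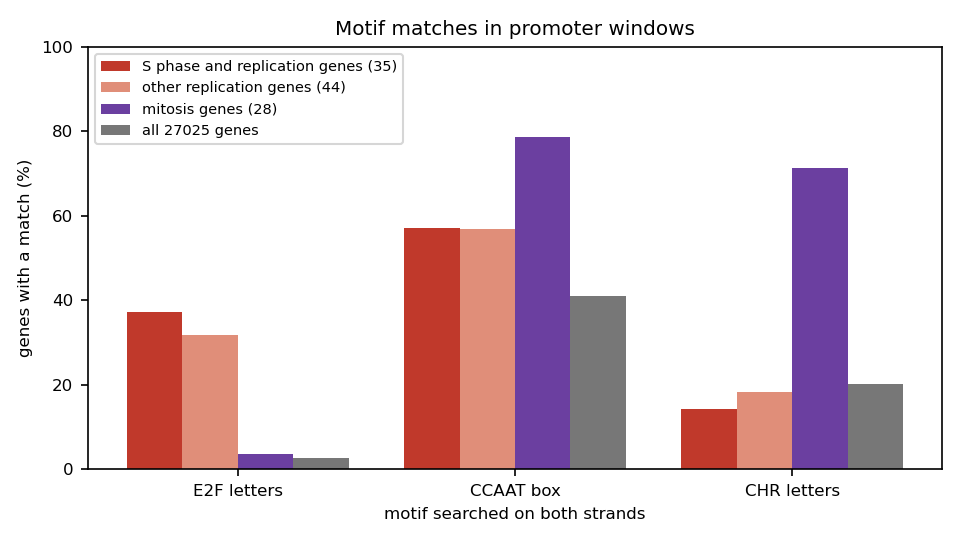
Share of genes (vertical axis, %) with at least 1 match to the E2F letters, the CCAAT box or the CHR letters in a 300-base promoter window, for the 35 members with a window, 44 other replication genes, 28 mitosis genes and all 27025 genes. E2F letters stood in 37.1% of members and 3.57% of mitosis genes, and CHR letters in 14.3% of members and 71.4% of mitosis genes.

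All 10 licensing genes had a higher mean, with log2 fold changes from 0.56 to 1.16 (median 0.75), both 16 dpc ventral arrays lay above both virgin arrays for 9 (all but Cdc6, beside 23.8% of all genes), and 8 had an unadjusted p under 0.05 (beside 6.18%). Over 16 dpc dorsal cells all 10 again had a higher mean (median 0.55), and the arrays separated for 2, Mcm2 and Mcm5, beside 13.1% of all genes.

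Mcm5, a subunit of the helicase ring, gave signals of 1915 and 3030.0 on the virgin ventral arrays, 2046 and 4329 on the 16 dpc dorsal arrays and 4508 and 6435 on the 16 dpc ventral arrays. Both ventral arrays of pregnant mice lay above all 4 others. The log2 fold change was 1.16 ± 0.35 (SE) over virgin ventral cells (limma adjusted p = 0.259) and 0.86 over 16 dpc dorsal cells (0.933). Its other 2 probe sets gave 1.04 and 0.87 over virgin ventral cells and 0.88 and 0.54 over 16 dpc dorsal cells.

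Mcm6, another subunit of the ring, gave 3363 and 3360.4 in virgin ventral, 3450.2 and 4896 in 16 dpc dorsal and 4881 and 5954 in 16 dpc ventral cells. The virgin arrays were nearly equal and below all others, while 16 dpc dorsal replicate 2 reached the lower ventral array. The log2 fold change was 0.68 ± 0.19 over virgin ventral cells (adjusted p = 0.248) and 0.39 over 16 dpc dorsal cells (0.9999). Mcm2 gave 1070.4 and 1425 in virgin ventral, 1083 and 1759 in 16 dpc dorsal and 1857 and 2529.9 in 16 dpc ventral cells, with the ventral arrays of pregnant mice above all others. Its log2 fold changes were 0.81 ± 0.26 (adjusted p = 0.295) and 0.65 (0.918).

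Mcm7, the licensing gene of highest mean log2 signal, gave 4099.8 and 4683, 4126 and 6149, and 5597 and 7434 in the same order of groups. Its 16 dpc ventral arrays lay above both virgin arrays, but 16 dpc dorsal replicate 2 lay between them. The log2 fold changes were 0.56 ± 0.22 (adjusted p = 0.392) and 0.36 (0.9999). Mcm3 and Mcm4 gave 0.77 and 0.72 over virgin ventral cells and 0.55 and 0.63 over 16 dpc dorsal cells, so that all 6 subunits of the ring lay within 0.56 to 1.16 over virgin ventral cells.

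Geminin (Gmnn), the inhibitor of Cdt1 whose protein fragment serves as a reporter of S, G2 and M phases, gave 1205 and 1439 in virgin ventral, 1227 and 1687 in 16 dpc dorsal and 1659 and 2453 in 16 dpc ventral cells. Its 16 dpc ventral arrays lay above both virgin arrays, and the lower of them lay below 16 dpc dorsal replicate 2. The log2 fold changes were 0.62 ± 0.23 (adjusted p = 0.378) and 0.49 (0.9999). Its target Cdt1, which loads the helicase, gave 0.81 and 0.46, the origin subunit Orc1 gave 0.81 and 0.54, and the loader Cdc6 gave 0.67 and 0.71.

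**Figure D3:**
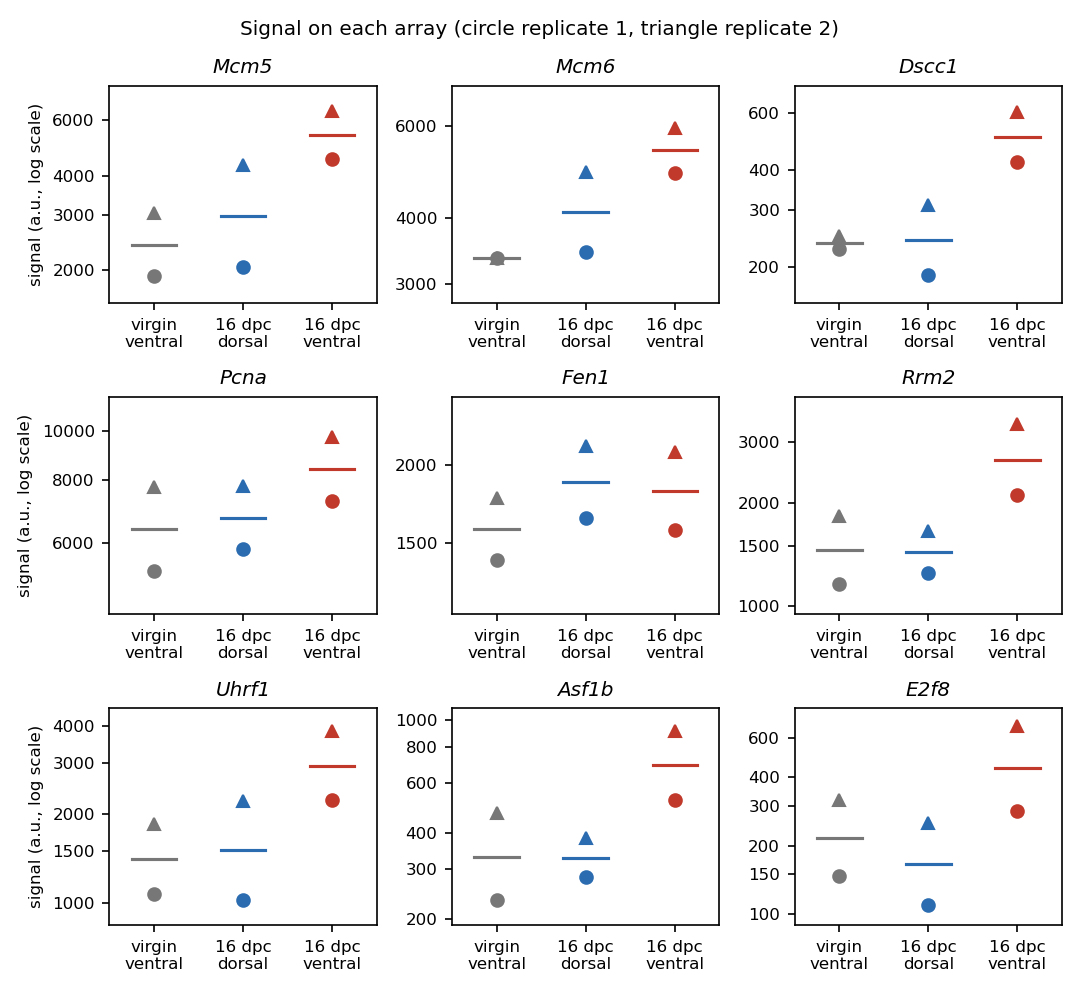
Signal (vertical axis, arbitrary units, log scale) of 9 members on each array; circles are replicate 1, triangles replicate 2 and lines the mean of the 2 log2 signals, in grey for virgin ventral, blue for 16 dpc dorsal and red for 16 dpc ventral. The red points of Mcm5, Dscc1, Rrm2, Uhrf1 and Asf1b lie above all 4 points of the other groups, whereas those of Fen1 lie within the range of the dorsal points or below it.

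Of the 20 fork genes, 20 had a higher mean over virgin ventral cells (median log2 fold change 0.59) and 19 over 16 dpc dorsal cells (median 0.36). On the chosen probe sets the arrays separated for 14 over virgin ventral cells (beside 23.8% of all genes) and for 4 over 16 dpc dorsal cells (Rfc3, Rfc4, Rfc5 and Dscc1, beside 13.1%). Rfc3 to Rfc5 are small subunits of replication factor C, which loads the Pcna clamp, and Dscc1 is a subunit of an alternative loader that acts in sister chromatid cohesion. Rfc2, the other measured small subunit, gave 0.18 over 16 dpc dorsal cells with overlapping arrays.

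Dscc1 gave 228 and 249 in virgin ventral, 189 and 310.2 in 16 dpc dorsal and 424 and 604 in 16 dpc ventral cells. Both ventral arrays of pregnant mice lay above all 4 others. Its log2 fold change was 1.09 ± 0.30 over virgin ventral cells (adjusted p = 0.248, unadjusted 0.00582) and 1.06 over 16 dpc dorsal cells (adjusted p = 0.584, unadjusted 0.00659), the smallest unadjusted p of the members in each comparison. Rfc3 gave 344 and 499, 355 and 342, and 527 and 584 in the same order of groups, with log2 fold changes of 0.42 ± 0.23 and 0.67. On this probe set the dorsal arrays of Rfc3 were close together and low, so that here, unlike most members, dorsal replicate 2 was not above dorsal replicate 1. A further Rfc3 probe set, present on all 6 arrays, gave 233 and 415, 282 and 342, and 548 and 335. Its arrays overlapped in both comparisons, with log2 fold changes of 0.46 in each, so the 2 probe sets disagree on separation.

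Pcna, the sliding clamp itself and the fork gene of highest mean log2 signal, gave 5280.2 and 7758 in virgin ventral, 5833 and 7769 in 16 dpc dorsal and 7273 and 9740.2 in 16 dpc ventral cells. In every group replicate 2 was above replicate 1, and the lower ventral array lay below replicate 2 of both other groups. The log2 fold changes were 0.40 ± 0.24 (adjusted p = 0.563) and 0.32 (0.9999), both below the median of the members.

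The subunits of DNA polymerase α and primase, which lay down the primers of new strands, all had a higher mean in both comparisons. Prim2, the large primase subunit, gave 539 and 504, 585 and 791, and 739 and 1188 in the order virgin ventral, 16 dpc dorsal and 16 dpc ventral. Its log2 fold changes were 0.85 ± 0.26 (adjusted p = 0.259) and 0.46 (0.9999), with all pregnant arrays above both virgin arrays. Pola1, the catalytic subunit, gave 600.2 and 651, 664 and 889, and 869 and 1019, again with all pregnant arrays above both virgin arrays, and log2 fold changes of 0.59 ± 0.20 (adjusted p = 0.325) and 0.29 (0.9999). Pola2 gave 0.50 and 0.27, and the small primase subunit Prim1, whose ranges overlapped in both comparisons, gave 0.31 and 0.17.

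Fen1, which trims flaps off Okazaki fragments, was the exception among the members. Its chosen probe set gave 1405 and 1765 in virgin ventral, 1642 and 2139 in 16 dpc dorsal and 1571 and 2096 in 16 dpc ventral cells. The ventral arrays of pregnant mice lay within the range of the dorsal ones or below it. The log2 fold changes were 0.20 ± 0.21 (adjusted p = 0.758) and -0.05 (0.9999). A further Fen1 probe set, present on all 6 arrays at lower signals, gave 467 and 631, 585 and 686, and 875 and 1045, with log2 fold changes of 0.82 and 0.60 and both 16 dpc ventral arrays above all others. The 2 probe sets thus disagree, and the one chosen is of a design (suffix _x_at) that can bind related transcripts. The chosen probe sets of Mcm4, Mcm5, Pold1, Rrm2 and Ccne1 have the same suffix. Without _x_at and _s_at probe sets, 42 of 42 members had a higher mean in both comparisons (medians 0.676 and 0.475).

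The other fork genes kept to the same direction. The helicase cofactors Mcm10, Gins1 and Cdc45 gave log2 fold changes of 1.01, 0.76 and 0.65 over virgin ventral cells and 0.55, 0.43 and 0.50 over 16 dpc dorsal cells. Gins2, of the same complex as Gins1, gave 462 and 967 on virgin arrays on which it was not called present, 743 and 1340.3 in 16 dpc dorsal and 888 and 1729 in 16 dpc ventral cells, with overlapping arrays and a fitted log2 fold change of 0.89 over virgin ventral cells. Its other probe set, present on all 6 arrays, gave 0.63. Subunits of the leading and lagging strand polymerases, Pole, Pole2 and Pold1, gave 0.58, 0.69 and 0.81, the ligase Lig1 gave 0.72 and the single-strand binding subunit Rpa2 gave 0.59 over virgin ventral cells.

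**Figure D4:**
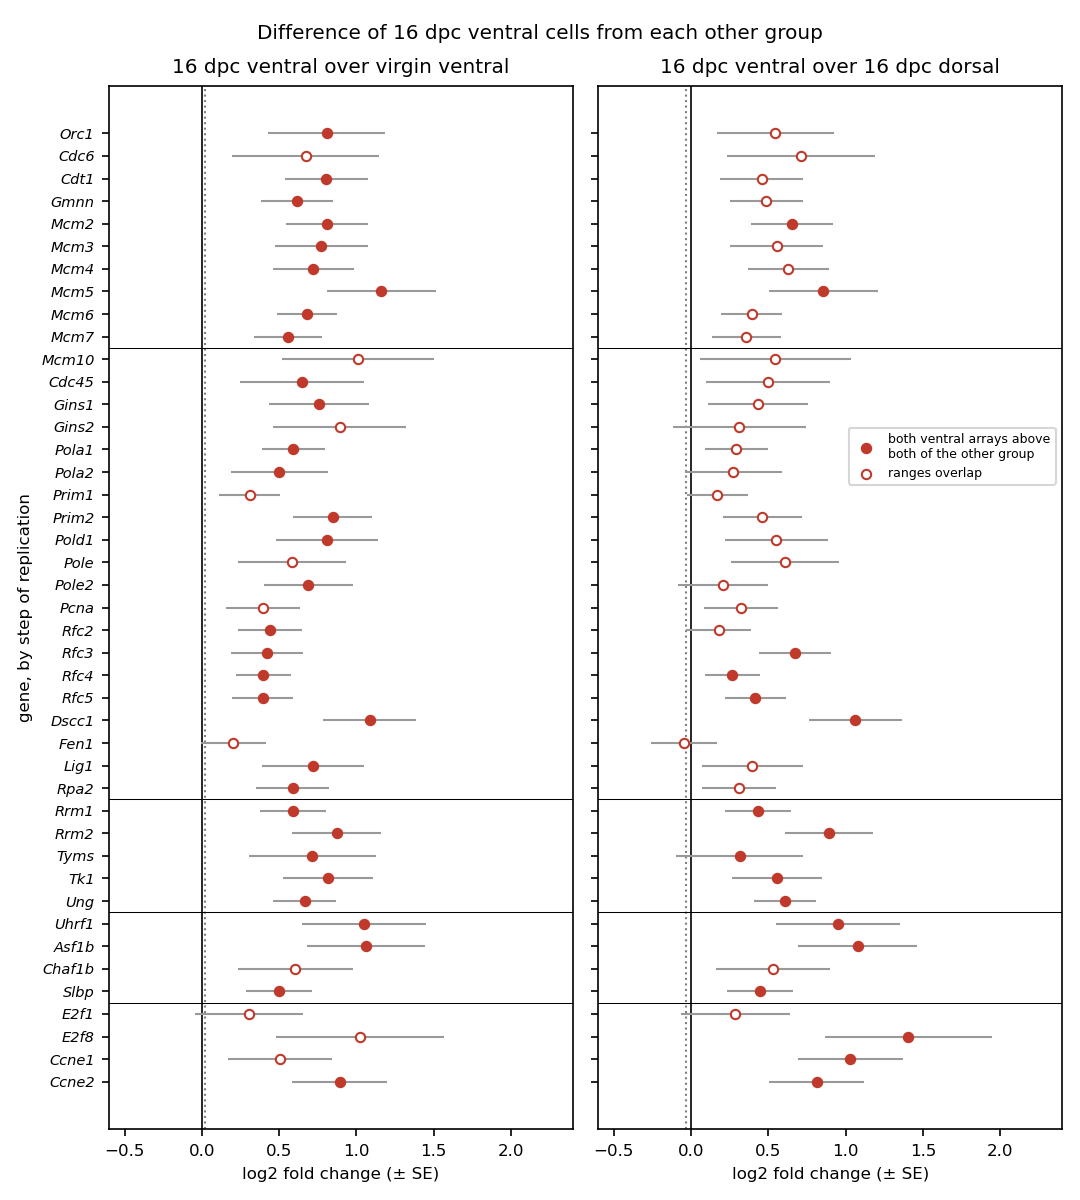
Log2 fold change (horizontal axis, ± SE of limma) of each of the 43 measured members in 16 dpc ventral cells over virgin ventral cells (left) and over 16 dpc dorsal cells (right); filled points mark members whose 2 ventral arrays both lie above both arrays of the other group, and the dotted line is the median of all genes. All 43 points on the left and 42 on the right lie above 0, and 32 and 17 are filled.

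On their chosen probe sets, the 5 genes of the nucleotide step, Ung among them, separated completely in both comparisons, with both 16 dpc ventral arrays above both arrays of each other group for 5 of 5, beside 23.8% of all genes over virgin ventral cells and 13.1% over 16 dpc dorsal cells. Further probe sets of Rrm1 and Tyms did not separate. The medians of their log2 fold changes were 0.71 and 0.55. Rrm2, the regulatory subunit of ribonucleotide reductase that is made mainly in S phase, gave 1159 and 1837 in virgin ventral, 1248 and 1662 in 16 dpc dorsal and 2106 and 3388 in 16 dpc ventral cells. Its log2 fold changes were 0.87 ± 0.29 (adjusted p = 0.298) and 0.89 (0.752), and 16 dpc dorsal cells stood at -0.02 from virgin ventral cells. Its promoter stretch is printed with the others above.

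Rrm1, the large subunit of the same enzyme, gave 1707 and 2055, 1743 and 2498.5, and 2519 and 3159.7 in the order virgin ventral, 16 dpc dorsal and 16 dpc ventral. The lower ventral array was above dorsal replicate 2 by a narrow margin, and the log2 fold changes were 0.59 ± 0.21 (adjusted p = 0.344) and 0.44 (0.9999). A further Rrm1 probe set, present on all 6 arrays, gave 0.74 and 0.26 with overlapping arrays in both comparisons. A further Rrm2 probe set present on all 6 arrays separated in both. Another did so too, but was called present on 2 arrays only and so passed the filter through 1 group. Thymidine kinase 1 (Tk1), which salvages thymidine, gave 384 and 589.7, 489.96 and 668, and 680.2 and 1037, likewise with a narrow margin over dorsal replicate 2, and log2 fold changes of 0.82 ± 0.29 (adjusted p = 0.341) and 0.55 (0.9999). Thymidylate synthase (Tyms) was measured at signals of 41.6 to 77.0 only, with log2 fold changes of 0.71 and 0.31. A further Tyms probe set, present on 5 arrays, gave -0.39 and -0.11, with signals of 70.2 and 22.1 in 16 dpc ventral cells.

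Ung, the uracil glycosylase that removes uracil from new DNA, gave 977 and 1041 in virgin ventral, 917 and 1203 in 16 dpc dorsal and 1392 and 1841 in 16 dpc ventral cells. Both ventral arrays of pregnant mice lay clear of all others. The log2 fold changes were 0.67 ± 0.20 (adjusted p = 0.259) and 0.61 (0.770).

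Chromatin genes had the highest median of the groups over virgin ventral cells, 0.83 over 4 measured genes, and a median of 0.74 over 16 dpc dorsal cells, but with 4 genes the difference from other steps was not tested. Uhrf1, which brings the maintenance methyltransferase to freshly copied DNA, gave 1073 and 1857 in virgin ventral, 1025 and 2227 in 16 dpc dorsal and 2231 and 3832 in 16 dpc ventral cells. The ventral arrays lay above all others, the lower one by a narrow margin over dorsal replicate 2. The log2 fold changes were 1.05 ± 0.40 (adjusted p = 0.379) and 0.95 (0.954).

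Asf1b, a histone chaperone of proliferating cells, gave 232 and 472, 279.9 and 383, and 521 and 916 in the same order, and both ventral arrays of pregnant mice lay above all others. Its log2 fold changes were 1.06 ± 0.38 (adjusted p = 0.346) and 1.08 (0.809). Slbp, which binds the stem-loop of histone messages, gave 2015 and 2555, 2122 and 2618, and 2684 and 3838, separated from both groups by a narrow margin, with 0.50 ± 0.22 (adjusted p = 0.420) and 0.45 (0.9999). The chromatin assembly factor subunit Chaf1b overlapped in both comparisons and gave 0.61 and 0.53.

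Among the 4 regulators of G1/S, all had a higher mean in both comparisons, with medians of 0.70 over virgin ventral cells and 0.92 over dorsal cells. They were the only step of the 5 with the higher median over dorsal cells. E2f8, a repressor of the E2F family that is itself induced in S phase, gave 147 and 319 in virgin ventral, 109 and 252 in 16 dpc dorsal and 286 and 675 in 16 dpc ventral cells. Replicate 2 was more than replicate 1 by a wide margin in each group, and the lower 16 dpc ventral array lay above both dorsal arrays but below virgin ventral replicate 2. Its log2 fold changes were 1.02 ± 0.54 (adjusted p = 0.504) and 1.41 (0.867).

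Cyclin E1 (Ccne1), which activates Cdk2 at the G1/S transition, gave 135 and 212, 100.5 and 137, and 207 and 278 in the order virgin ventral, 16 dpc dorsal and 16 dpc ventral. Both 16 dpc ventral arrays lay above both dorsal arrays and the lower one just below virgin ventral replicate 2, with log2 fold changes of 0.50 ± 0.34 (adjusted p = 0.614) and 1.03 (0.766). These values rest on an _x_at probe set, and the other Ccne1 probe set was called present on no array. Cyclin E2 (Ccne2) gave 466 and 700.1, 508 and 718, and 817 and 1377, above both other groups, with 0.89 ± 0.31 (adjusted p = 0.325) and 0.81 (0.854). The chosen probe set of E2f1 overlapped in both comparisons and gave 0.31 and 0.29. A further E2f1 probe set, present on all 6 arrays, gave 0.74 and 0.58. On it both 16 dpc ventral arrays (456 and 506) lay above all others, so the 2 probe sets disagree.

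Other probe sets of the same genes gave a second reading. Of 51 further probe sets, 30 over 23 genes passed the same filter, and 27 of these had a higher mean over virgin ventral cells (median log2 fold change 0.63) and 28 over 16 dpc dorsal cells (median 0.41). The 3 with a lower mean in either comparison belonged to Mcm3, Tyms and Slbp. The 30 include an Rrm2 probe set that was called present on 2 arrays only.

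Other genes of replication were in the same direction. Of 48 other replication genes that passed the filter, 46 had a higher mean over virgin ventral cells (median 0.40 on the log2 scale) and 42 over 16 dpc dorsal cells (median 0.29), beside 53.0% and 43.3% of all genes. In limma 0 passed the adjusted p in either direction. At an unadjusted p under 0.05, 9 and 3 were higher, beside 6.18% and 2.65% of all genes. Hells, a chromatin remodeller, gave 796 and 1159 in virgin ventral and 1476 and 2318 in 16 dpc ventral cells, a log2 fold change of 0.95, and Dbf4, the activator of the kinase Cdc7, gave 411 and 457 and 569 and 902 (0.73). Dut, which keeps uracil out of DNA, gave 1597 and 1674 and 2105 and 2863 (0.59). Over 16 dpc dorsal cells Ccna2, the cyclin of S and G2 phases, stood at 0.94.

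The 20 G1 cyclins, kinases and brakes stayed near the values of all genes, with 9 of 20 higher in each of these comparisons, beside 53.0% and 43.3% of all genes. Their medians were -0.04 and -0.02, beside 0.02 and -0.04. No gene of the list passed the adjusted p, and at an unadjusted p under 0.05 there were 1 higher and 3 lower over virgin ventral cells, beside 6.18% and 5.47% of all genes. The 3 were cyclin D1 (Ccnd1, log2 fold change -0.34), the Cdk inhibitor Cdkn1b (-0.39) and the antiproliferative gene Btg2 (-0.49), and the 1 was Tfdp1, the partner of E2F proteins (0.40). Tfdp1 gave 1611 and 2031 in virgin ventral, 1867 and 1873 in 16 dpc dorsal and 2218 and 2553 in 16 dpc ventral cells, with the ventral arrays of pregnant mice above all others.

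Mitosis genes were higher in 16 dpc ventral cells too, 29 of 30 over virgin ventral cells (median 0.83) and 30 of 30 over 16 dpc dorsal cells (median 0.95), beside 53.0% and 43.3% of all genes. Of these mitosis genes 0 passed the adjusted p in limma. At an unadjusted p under 0.05, 14 and 21 were higher, beside 6.18% and 2.65% of all genes. The mitosis genes parted from the replication genes in 16 dpc dorsal cells, where 9 of 30 had a higher mean than in virgin ventral cells (median -0.19), while 35 of 43 members did (median 0.16), beside 60.2% of all genes. Within replicate 1 this dorsal difference was 0.23 for mitosis genes and 0.04 for members, and within replicate 2 it was -0.62 and 0.30, so the parting was seen in replicate 2 and not in replicate 1. On the array 16 dpc dorsal replicate 2 the median log2 deviation from the mean of the 6 arrays was 0.22 for members and -0.33 for mitosis genes, and on virgin ventral replicate 2 it was -0.09 and 0.24. The difference between the 2 lists was not tested.

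The gene for the proliferation marker Ki67 (Mki67) gave 865 and 1762 in virgin ventral, 832 and 1163 in 16 dpc dorsal and 2078 and 2982 in 16 dpc ventral cells. Both ventral arrays of pregnant mice lay above all others, and 16 dpc dorsal replicate 2 lay below virgin ventral replicate 2. Anillin (Anln), of the cleavage furrow, gave 850.0 and 1375, 813 and 733, and 1658 and 2483 (log2 fold change over dorsal cells 1.39, adjusted p = 0.206). Both genes were lower in dorsal than in virgin ventral cells within replicate 1 as well, unlike most of their list. There 26 of 30 mitosis genes were higher in dorsal cells, beside 5896 of the 10993 genes tested, and within replicate 2 it was 6 of 30.

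**Figure D5:**
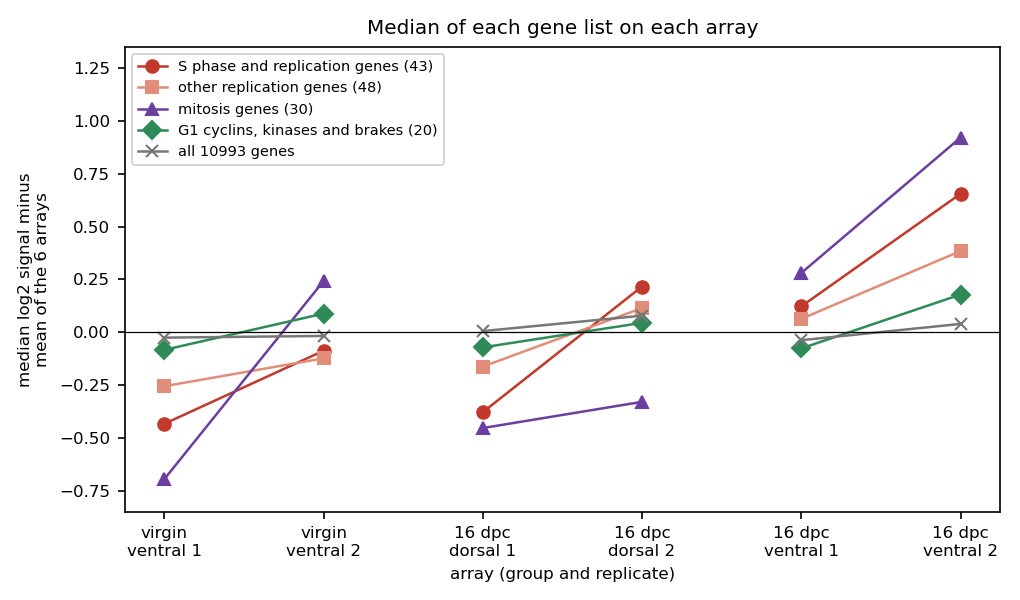
Median over each gene list of the log2 signal minus the gene's mean over the 6 arrays (vertical axis) on each array, with lines joining replicates 1 and 2 of a group. Replication genes stand at 0.12 and 0.66 in 16 dpc ventral cells; on 16 dpc dorsal replicate 2 they stand at 0.22 and mitosis genes at -0.33, while all genes stay between -0.04 and 0.08.

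Markers of other cells also differed between the groups. The summed signal of the 8 Langerhans and antigen-presenting cell markers was 4242 and 2679.8 on the virgin ventral arrays, 7744 and 6361 on the 16 dpc dorsal arrays and 8351 and 5925 on the 16 dpc ventral arrays, so it was high in both groups of pregnant mice, while the members were high in the ventral one. The sum of the 7 genes of epidermal T cells was 684 and 733, 1804 and 2847, and 3544 and 4576, most of it from Thy1 in the pregnant groups, with Cd3e, Cd3d, Cd7 and Il2rb present on no array. In the sum of this list both 16 dpc ventral arrays were above all 4 others, as they were for Thy1. The other genes of the list that were tested, Cd3g and Ptprc, did not share that order. Their log2 fold changes were -0.45 and -0.29 over 16 dpc dorsal cells and 0.12 and 0.75 over virgin ventral cells. The part of these cells in the members' values was not tested.

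The sum of the 8 mammary epithelium and milk genes was 8347 on 16 dpc ventral replicate 1 and between 471 and 1177 on the other 5 arrays, with Lalba present on none. The array with the highest members, 16 dpc ventral replicate 2, was at 1161. This sum mixes genes of opposite order. On that array Csn2 (699) and Csn1s1 (186) were above every virgin ventral and 16 dpc dorsal array. Csn3 (112), Krt8 (9.98) and Krt18 (47.6) were below virgin ventral replicate 2 (129, 474 and 413). The part of mammary cells in the members' values was not tested. The basal keratinocyte sum ran from 138426 to 195781 and that of differentiating keratinocytes from 76131 to 97676, each highest on 16 dpc dorsal replicate 2. The latter sum was mostly Krt1, Krt10 and Sbsn. Of its 6 markers, 5 had a lower mean in 16 dpc ventral than in virgin ventral cells (median log2 fold change -0.52, 0 past the adjusted p in limma). For 5, both ventral arrays lay below both virgin arrays, beside 19.8% of all genes. Over 16 dpc dorsal cells the median was -0.08. The part of differentiating cells in the members' values was not tested. Sums of the 7 hair follicle bulge genes (34443 to 49582), 7 hair matrix and shaft genes (571 to 1286), 5 melanocyte genes (199 to 350.0) and 2 erythroid genes (17.2 to 114) did not place the 16 dpc ventral arrays together above the rest. The bulge sum was mostly Krt15 (31571 to 47391). Over 16 dpc dorsal cells 4 bulge genes were higher and 3 lower. For 3 (Cd34, Lgr5 and Lhx2, log2 fold changes 2.03, 1.49 and 1.25) both ventral arrays lay above both dorsal arrays, beside 13.1% of all genes. Over virgin ventral cells 1 was higher and 6 lower. In limma 0 passed the adjusted p. The part of follicle cells in the members' values was not tested. The sum of the 7 fibroblast genes was 1270.2 and 936.7 on the 16 dpc ventral arrays and 729 to 936.5 on the others, with the collagen gene Col1a2 and with Lum and Pdgfra present on none.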

How the data were processed

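RNA of sorted basal cells was hybridised by the authors to Affymetrix mouse 3′ expression arrays. The deposited files hold, per array, a MAS5 signal, which is a linear intensity that the authors set to the same trimmed mean on every array, and a detection call (present, marginal or absent) for 45101 probe sets. The submitters' processing notes name Affymetrix Expression Console, version 1. A genome build was not named in the sources used here.

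Signals were floored at 1 and taken to log2. Of the probe sets, 34945 had 1 gene symbol in the platform annotation, 932 had several and 9160 had none, and only those with 1 were used. A gene was tested where 1 group or more had its probe set present on each array. The 3 groups of 2 arrays were fitted together with limma 3.58.1 in R 4.3.3 (lmFit, eBayes with trend, two-sided, Benjamini-Hochberg adjustment over all 10993 genes), and the script was tested on simulated data. With 2 arrays a group, the number of arrays limits the precision. Alternatives were a replicate block, other scalings, filters and probe set rules, and leaving out arrays.

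The members, gene lists and marker lists were chosen with earlier results of these data known. Values on every array are given, in each step, for the member of highest mean log2 signal, the 3 of smallest p over virgin ventral cells, the 2 of smallest p over 16 dpc dorsal cells, those with a negative log2 fold change, and Gmnn. Other replication, G1 and mitosis genes were named from those of smallest p. Promoter windows came from RefSeq (GRCm38.p6). Proteins were not analysed here.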

Additional observations from a re-analysis of the deposited data

How the results depend on the processing

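With the replicate number as a block, 3 members rose in 16 dpc ventral over virgin ventral cells where none did without it, Mcm5 (log2 fold change 1.16, limma adjusted p = 0.0303), Uhrf1 (1.05, 0.0303) and Rrm2 (0.87, 0.0452), beside 54 genes higher and 32 lower of all genes against 15 and 7, and no other call on members changed. By the series' design text the experiment was run more than once and the file headers of same-numbered arrays share an element, but the labels do not tie a number to a run and deviations of same-numbered arrays correlated at 0.03, 0.01 and 0.45, so the pairing is not settled. Leaving out 1 array at a time, the median log2 fold change of members ran from 0.41 to 0.92 over virgin ventral cells, from 0.15 to 0.79 over 16 dpc dorsal cells and from -0.13 to 0.49 in 16 dpc dorsal over virgin ventral cells, where it reversed without virgin ventral replicate 1 (-0.01) and without 16 dpc dorsal replicate 2 (-0.13), and 14 to 41 members had a higher mean. Without replicate 2 of both 16 dpc groups the medians were 0.41, 0.53 and -0.13, with 14 members higher in the last. Averaging all probe sets of a gene gave a median over dorsal cells of 0.44, with 37, 40 and 27 members higher in the 3 comparisons against 43, 42 and 35. Fen1 reversed over virgin ventral cells without 16 dpc ventral replicate 2 or replicate 2 of both 16 dpc groups (-0.004 in each), and over 16 dpc dorsal cells with the mean of all probe sets (0.27), without _x_at and _s_at probe sets (0.60), and, leaving out 1 array at a time, ran from -0.26 to 0.16 there, turning positive without 16 dpc dorsal replicate 2 (0.14) or 16 dpc ventral replicate 1 (0.16). Pola1 reversed over dorsal cells when all its probe sets were averaged (-0.20), where its other probe set, called present on no array, gave -0.70. The cause of the reversals on leaving out arrays was not tested. Of the other values of the named members under an alternative, 660 kept their direction and their side of the threshold. In the main setting, with 2 arrays a group and no block, the smallest adjusted p of a single member was 0.248.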
